A study of Mus musculus with 12 samples.

Results

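The genes described here encode enzymes that form or clear oxysterols, the oxidized derivatives of cholesterol. They were chosen by symbol for their role, with earlier results of these data known, and all 6 were present among the 24421 genes of the table. *Ch25h*, *Cyp27a1* and *Cyp46a1* encode sterol side-chain hydroxylases that make oxysterols. *Cyp7b1*, *Hsd3b7* and *Sult2b1* encode enzymes that convert them further. RNA from whole adrenals of 2-month-old female mice on a mixed sv129-C57BL/6 background was sequenced after polyA selection, in 4 *Abcg1 cKO*, 4 *Abca1 cKO* and 4 control libraries. The *Abcg1 cKO* and *Abca1 cKO* mice carried a Cre recombinase expressed from the aldosterone synthase gene (*Cyp11b2*) and 2 conditional alleles of the named cholesterol exporter. Controls carried this Cre without the conditional alleles according to the series description, while the methods also admit littermates with 1 of the 2 conditional alleles, whose Cre status they do not state. Capsule, medulla, vessels and immune cells of the whole gland are not targets of this Cre and contribute RNA to every library, so fewer cells of a type and less RNA per cell cannot be told apart.

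The values compared here are the authors' mean normalized counts of 2 sets of libraries, the 4 *Abcg1 cKO* libraries and the 8 control and *Abca1 cKO* libraries averaged as 1 (the combined group). No value of a single library could be tied to a group by its label. The spread between animals was therefore not measured here, no difference was tested, and control was not separated from *Abca1 cKO*. The raw depth per library is also unknown. "Higher" and "lower" refer below to the group means only. The gene targeted in *Abcg1 cKO* mice had a mean of 249.7 against 305.4, counted over the whole gene, of which Cre removes only exon 3. *Abca1* had a mean of 10057 against 7791, the latter including the *Abca1 cKO* libraries.

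Oxysterols act as signals of sterol excess. They are ligands of the liver X receptors (LXR), which induce cholesterol exporters such as Abca1 and Abcg1, and they bind Insig proteins, which then hold back the SREBP factors that drive cholesterol synthesis and uptake. Ch25h is an enzyme of the endoplasmic reticulum known for its induction in macrophages by interferon. Cyp27a1 is a mitochondrial P450 enzyme that takes its electrons from the same ferredoxin system as the steroidogenic enzyme Cyp11a1. Cyp46a1 is a microsomal P450 enzyme best known from neurons. Cyp7b1 hydroxylates the steroid ring of oxysterols, Hsd3b7 oxidizes the product of that step, and Sult2b1 attaches a sulfate group to cholesterol and oxysterols.

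The promoter sequences of *Ch25h* and *Cyp46a1* are shown because these genes had the lowest ratios of the 6. They are the 250 bases before the RefSeq start in GRCm38.p6 (the mm10 assembly), read 5′ to 3′ along the gene. The *Ch25h* window is chr19:34475149-34475398 on the minus strand, and the *Cyp46a1* window is chr12:108334066-108334315 on the plus strand. Capitals mark matches on either strand to 5 motifs chosen after the sequences had been seen.
Ch25h: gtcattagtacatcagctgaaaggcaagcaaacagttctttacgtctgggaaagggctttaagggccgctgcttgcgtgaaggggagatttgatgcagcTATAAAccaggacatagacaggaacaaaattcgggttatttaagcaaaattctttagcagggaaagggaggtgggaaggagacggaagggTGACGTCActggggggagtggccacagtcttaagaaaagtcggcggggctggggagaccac
Cyp46a1: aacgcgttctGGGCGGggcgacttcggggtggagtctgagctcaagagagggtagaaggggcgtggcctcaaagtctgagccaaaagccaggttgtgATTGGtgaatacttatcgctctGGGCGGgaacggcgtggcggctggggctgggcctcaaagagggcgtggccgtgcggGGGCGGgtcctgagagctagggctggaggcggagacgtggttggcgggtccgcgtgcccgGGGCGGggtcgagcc

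The *Ch25h* window held 1 match to the cAMP response element TGACGTCA, starting 61 bases before the start site, and 1 to the TATA box TATAAA, starting 151 bases before it. The former was present in 1.55% of the 32851 promoter windows of this length and the latter in 12.4%. The *Cyp46a1* window held no match to either motif, but 4 matches to the GC box GGGCGG and 1 to CCAAT, which were present in 32.7% and 33.8% of windows. Its GC content was 67.6%, against 50.4% for *Ch25h* and a median of 52.4% over all windows. None of the 4 marked motifs was thus shared by the 2 windows. Neither window held the fifth, the steroidogenic factor 1 site CAAGGTCA, which was present in 1.33% of windows. Promoter entries were found for 5 of the 6 genes, all but *Cyp7b1*. The GC box was also present in the windows of *Cyp27a1* and *Hsd3b7*, and CCAAT in that of *Cyp27a1*. Neither window of *Sult2b1* held any of the 5 motifs. Because the motifs were chosen after the sequences had been seen, no contrast between genes was drawn from them. A match says only that these letters are present.

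The lowest ratios among the 6 genes were those of 2 of the 3 oxysterol-forming enzymes. *Ch25h*, a gene of 1 exon on chromosome 19 (34473778 to 34475164), had an authors' mean of 13.1 normalized counts over the *Abcg1 cKO* libraries, against 23.2 over the combined group. The *Abcg1 cKO* mean was thus 56.5% of the other, with a log2 ratio of -0.78 on the log2(mean + 1) scale. *Cyp46a1*, on chromosome 12 (108334381 to 108362234), had means of 21.9 and 38.5. This was 57.0% of the combined group, with a log2 ratio of -0.78. Both transcripts were scarce in the gland, so these ratios rest on low normalized counts. *Cyp27a1*, on chromosome 1 (74713574 to 74737892), was more abundant, with means of 213.8 and 236.7. Its *Abcg1 cKO* mean was 90.4% of the combined mean, with a log2 ratio of -0.15.

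**Figure D1:**
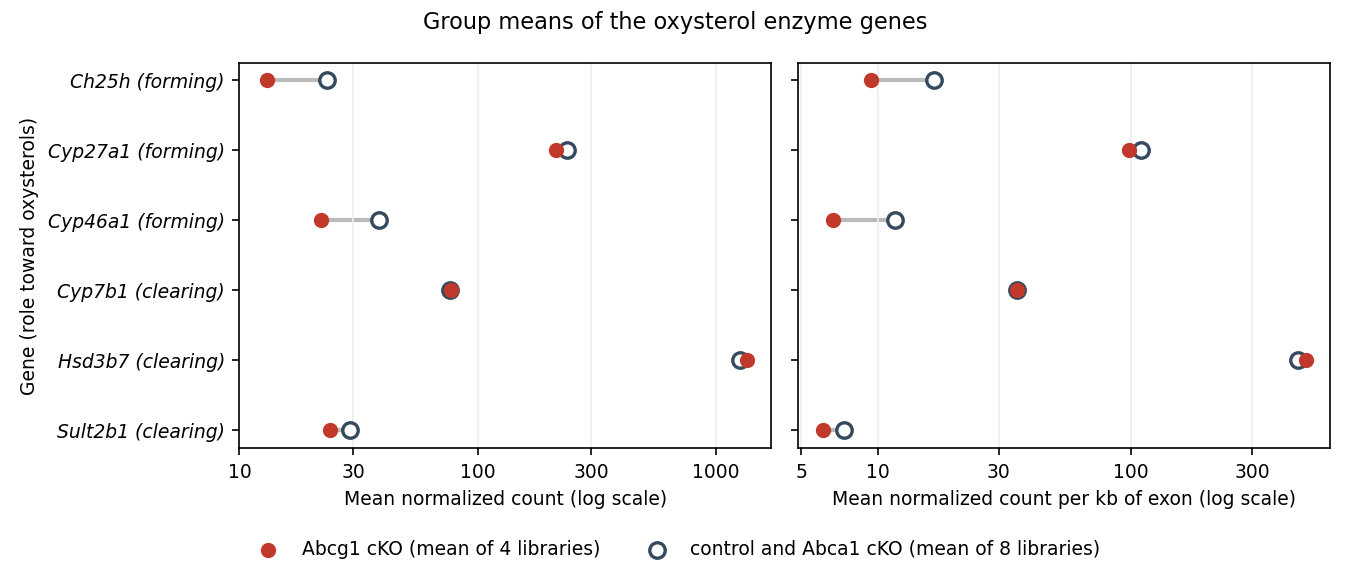
Authors' mean normalized counts of the 6 genes (left) and the same per kilobase of annotated exon (right), both on log axes. Filled points are the Abcg1 cKO mean of 4 libraries and open points the control and Abca1 cKO mean of 8 libraries, with no error bars because values of single libraries were not tied to groups. The points of Ch25h and Cyp46a1 are far apart (13.1 against 23.2, and 21.9 against 38.5), and those of Cyp7b1 coincide (77.2 against 76.9).

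The clearing enzymes had ratios closer to 1 than *Ch25h* and *Cyp46a1*. *Cyp7b1*, on chromosome 3 (18071950 to 18243338), had nearly equal means of 77.2 in *Abcg1 cKO* and 76.9 elsewhere, a log2 ratio of 0.01. *Hsd3b7*, on chromosome 7 (127800604 to 127803802), had means of 1350.0 and 1265, a log2 ratio of 0.09 and the highest of the 6. *Sult2b1*, on chromosome 7 (45729983 to 45784669), had means of 24.0 and 29.1. Its log2 ratio of -0.27 lay just past the fold used here. Summed over the 3 forming enzymes, the mean was 248.9 in *Abcg1 cKO* against 298.3. Over the 3 clearing enzymes it was 1451 and 1371. These sums are mostly *Cyp27a1* and *Hsd3b7*.

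A fold of 1.2, the relaxed cutoff in the study's methods, was applied to the group means. By it 3 of the 6 genes were lower in *Abcg1 cKO* (*Ch25h*, *Cyp46a1* and *Sult2b1*), none was higher and 3 were within the fold. Among all 14305 genes with a mean of at least 10 normalized counts, which include all 6, 12.2% were lower and 10.4% higher by the same fold. The median log2 ratio of these genes was 0.00 and that of the 6 genes -0.21. Ratios spread more widely among scarce transcripts, and more of these were lower than higher. The median of 0.00 covers genes of all these levels, and none was computed for scarce transcripts alone. Of the 3149 genes with a mean from 10 to below 100, 32.1% were lower and 17.2% higher, and 4 of the 6 genes fell in that range, 3 of them lower. The log2 ratio of *Ch25h* or less was reached by 1.78% of all 14305 genes and by 6.76% of those in the range. For *Cyp46a1* the shares were 1.77% and 6.73%, for *Sult2b1* 11.8% and 31.5%, and for *Cyp7b1* 51.0% and 60.5%. The ratio of *Sult2b1* was therefore a common one for a gene at its level. *Cyp27a1* lay at 22.3% of 6973 genes with a mean from 100 to below 1000, and *Hsd3b7* at 65.8% of 4183 genes with a mean of 1000 or more. A fold of 1.5 left *Ch25h* and *Cyp46a1* lower and none higher, beside 3.26% and 2.59% of all 14305 genes. The shares at this fold were not computed for the range from 10 to below 100 alone, which holds both genes. This count therefore has no background of like level.

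**Figure D2:**
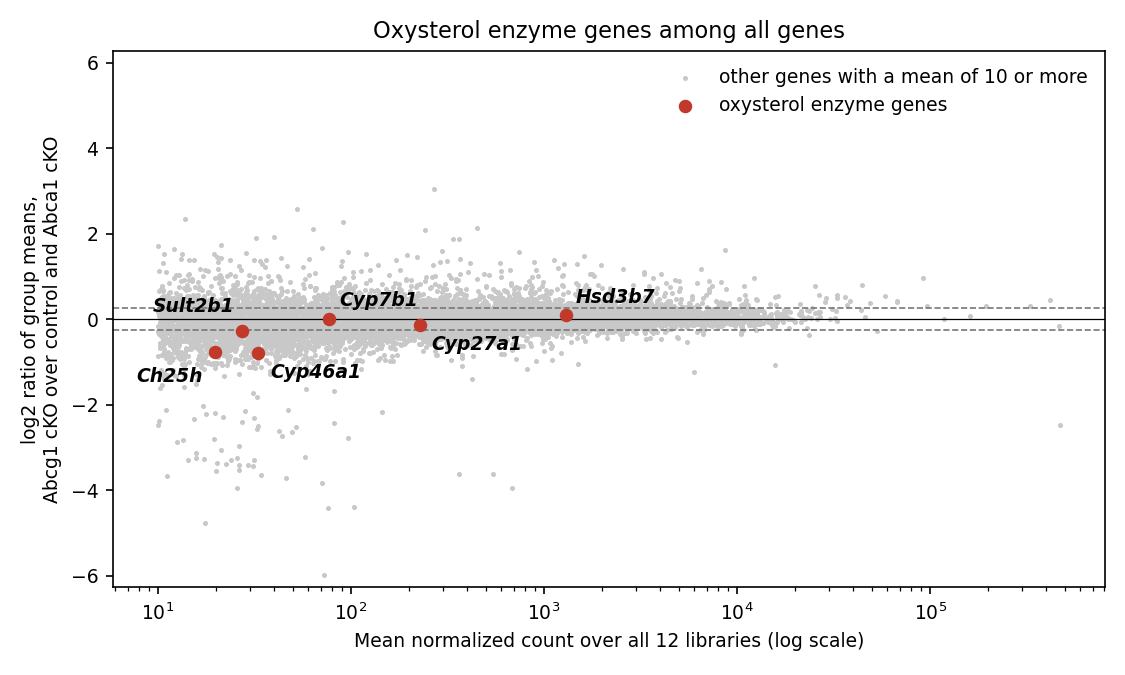
log2 ratio of the 2 group means (Abcg1 cKO over the combined group, pseudocount of 1) against the mean normalized count over 12 libraries on a log axis, for 14305 genes in grey and the 6 oxysterol enzyme genes in red. Dashed lines mark a fold of 1.2. Ch25h and Cyp46a1 lie at -0.78 in the part of the plot where the grey points spread widely, and Hsd3b7 lies at 0.09 where they are narrow.

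Levels were compared between genes per kilobase of exon. Lengths cover all exons annotated in GENCODE M21. The study's methods name the mm10 genome for mapping but not the gene annotation used for counting, so the gene models may differ. *Hsd3b7* was by far the most abundant, at 487.5 normalized counts per kilobase in *Abcg1 cKO*, against 457.0. It made up 75.7% and 71.7% of the summed level of the 6 genes. *Cyp27a1* followed at 98.4 and 108.9 per kilobase, and then *Cyp7b1* at 35.6 and 35.5. The other genes were low, with *Ch25h* at 9.45 and 16.7, *Cyp46a1* at 6.67 and 11.7, and *Sult2b1* at 6.06 and 7.37 per kilobase. The order was the same in both groups. Among the last 3 it depended on the length used, since by the longest transcript *Sult2b1* came before *Cyp46a1* and *Ch25h* in *Abcg1 cKO* (12.9, 10.4 and 9.45 per kilobase), and *Cyp46a1* before *Ch25h* and *Sult2b1* in the combined group (18.2, 16.7 and 15.7). Per kilobase, *Cyp27a1* exceeded *Ch25h* 10.4-fold in *Abcg1 cKO* libraries and 6.51-fold in the others. *Cyp7b1*, which acts on the product of Ch25h, exceeded it 3.77-fold and 2.12-fold. The level of *Hsd3b7* over *Cyp7b1*, the enzyme before it, was 13.7-fold and 12.9-fold.

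The spans of 4 of these genes overlap other annotated genes in GENCODE M21 (GRCm38). *Cyp7b1* holds the small nuclear RNA *Gm23686*, *Ch25h* overlaps the antisense transcript *Gm26902*, *Hsd3b7* the sense read-through gene *Gm49388* and the antisense *9430064I24Rik*, and *Sult2b1* the antisense *Gm31597* and *Lmtk3*. *Lmtk3*, which encodes a kinase, had means of 167.6 in *Abcg1 cKO* and 212.1 elsewhere. The overlapping genes other than *Lmtk3* had no values under these names in the deposited data. The libraries were made with a stranded kit, but the sources used here do not say whether counting used strand. If it did not, reads from opposite strands at these overlaps cannot be told apart.

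Other enzymes around oxysterols and bile acids were taken from a list of 22 genes, of which 13 had a mean of at least 10. By the 1.2 fold 3 of these were higher and 3 lower (23.1% each), with a median log2 ratio of 0.08. Among all genes with such a mean 10.4% were higher and 12.2% lower. Of the 9 genes below that minimum 7 were lower and none higher. The 9 include *Sult2a1*, which was at 0 in both groups. With every gene of a mean above 0 included, the list median turned to -0.17. Of all genes with a mean above 0, 18.6% were lower and 13.7% higher. The shares among all genes below the minimum alone were not computed, so this count has no like background. *Slc27a2*, a very-long-chain acyl-CoA synthetase, had the highest ratio (45.3 against 21.6, log2 ratio 1.04). The other higher genes were *Akr1d1*, which encodes a steroid reductase (80662 against 61035, log2 ratio 0.40), and *Cyp11a1*, the side-chain cleavage enzyme (109837 against 89509, log2 ratio 0.30). *Cyp3a11*, a P450 enzyme typical of liver, had the lowest (3.06 against 49.6, log2 ratio -3.64). *Cyp39a1*, a further oxysterol hydroxylase, had means of 108.0 and 134.3, a log2 ratio of -0.31. *Lcat*, which esterifies plasma cholesterol, had means of 17.3 and 33.9. The liver enzyme *Cyp7a1* was below the minimum, with means of 0.734 and 4.77, and was named after its values had been seen. *Cyp3a11* and *Cyp7a1* were thus at 6.17% and 15.4% of the combined group, and the summed level of 5 liver markers was at 8.39%. The part of liver RNA in this list was not tested.

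Of 6 redox partners of P450 enzymes, 2 were higher and none lower. All 6 had a mean of 1000 or more, a range in which 7.51% of all genes were higher and 1.96% lower. *Por*, the reductase that serves microsomal P450 enzymes such as Cyp46a1 and Cyp7b1, had means of 7786 and 6009 (log2 ratio 0.37). *Fdx1*, the ferredoxin that serves Cyp27a1 and Cyp11a1, had means of 17300 and 13475 (log2 ratio 0.36). *Cyb5b* had the lowest ratio of the list, at -0.05.

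A list of oxysterol sensors, their receptor partners and related binding proteins had a median log2 ratio of 0.02 over 23 genes, of which 4 were higher and 2 lower. These were 17.4% and 8.7%, beside 10.4% and 12.2% of all genes with a mean of at least 10. *Insig1* had the highest ratio (2687 against 1303, log2 ratio 1.04), while *Insig2* was at 0.11. *Osbpl7*, an oxysterol-binding protein family member, had the lowest (205.6 against 281.4, log2 ratio -0.45). *Nr1h3*, which encodes LXRα, had means of 365.6 and 254.6 (log2 ratio 0.52), and *Nr1h2*, which encodes LXRβ, 1758 and 1972 (log2 ratio -0.17). *Gpr183*, the receptor for an oxysterol made by Ch25h and Cyp7b1 in sequence and degraded by Hsd3b7, had similar means of 40.02 and 42.1. Of 12 LXR targets 3 (25%) were higher and 2 (16.7%) lower, with a median log2 ratio of 0.10. These include *Abcg1*, inactivated in the *Abcg1 cKO* mice and 1 of the lower genes, and *Abca1*, inactivated in 4 libraries of the combined group and 1 of the higher ones. Of the other 10, 2 were higher and 1 lower, with the same median. *Lpl*, which encodes lipoprotein lipase and is also abundant in fat, was the highest at 1.06, and *Pltp*, which encodes phospholipid transfer protein, the lowest at -0.37. Interferon-stimulated genes, a class to which *Ch25h* belongs, had a median log2 ratio of 0.08. Of these 12 genes 2 (16.7%) were higher and none lower, with *Usp18* the highest at 0.31 and *Rtp4* the lowest at -0.17.

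**Figure D3:**
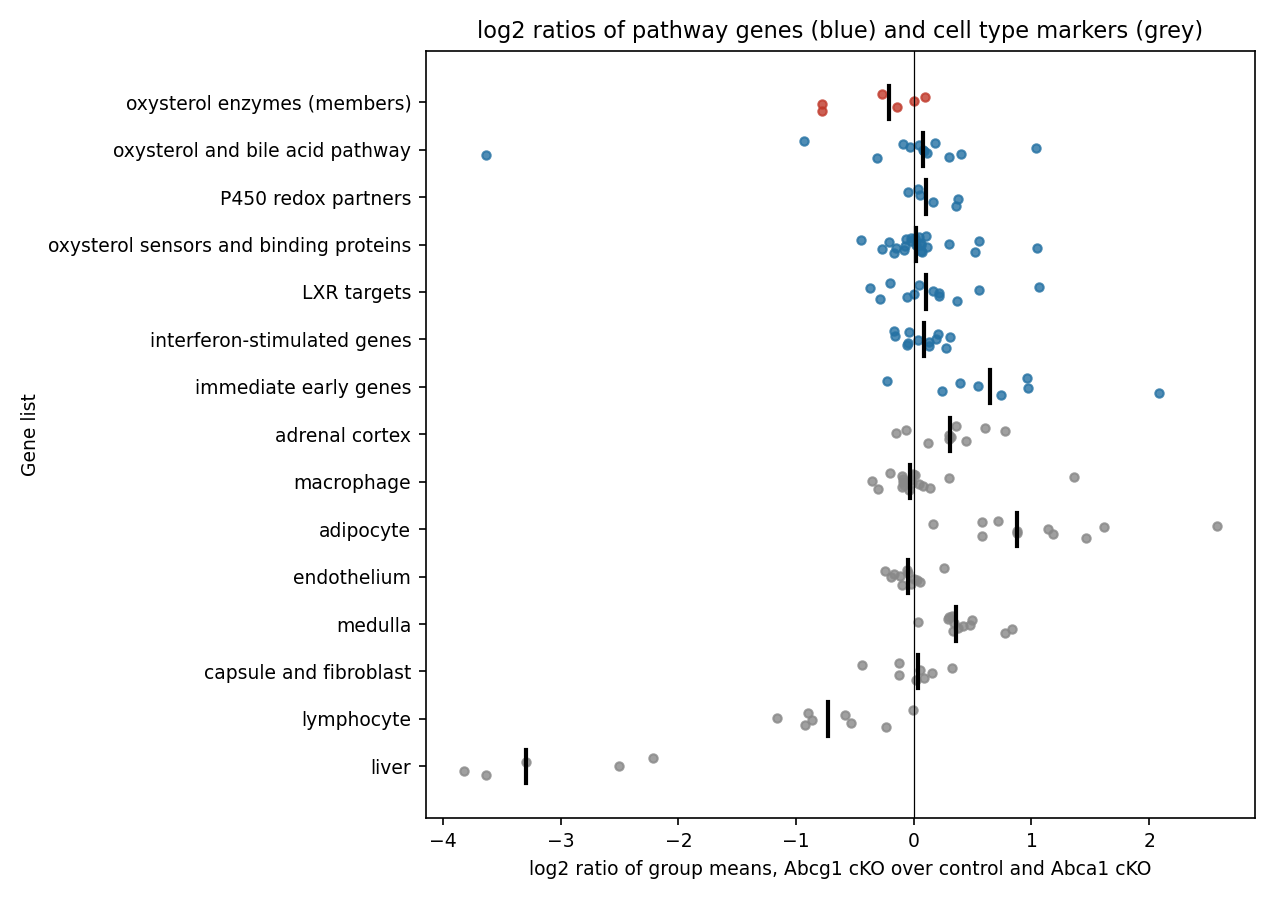
log2 ratios of group means, Abcg1 cKO over the combined group, for the 6 oxysterol enzyme genes (red), pathway lists (blue) and cell type marker lists (grey), restricted to genes with a mean of at least 10. Each point is a gene and each black bar a list median. The median is -0.21 for the 6 genes, -0.03 for macrophage markers, -0.73 for lymphocyte markers and -3.29 for liver markers.

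Marker genes showed adrenal cortex as the main tissue, with *Star*, which delivers cholesterol to steroidogenic mitochondria, at 507891 and 374521 normalized counts. Markers of other cell types and tissues are given beside the genes they may share a source with. Macrophages are a known source of *Ch25h* and *Cyp27a1*. All 18 macrophage markers were measured, 2 being higher (*Lyve1* and *Cd163*) and 2 lower (*Aif1* and *Cd68*). These were 11.1% each, beside 10.4% and 12.2% of all genes with a mean of at least 10. The summed level of the macrophage markers was 21587 in *Abcg1 cKO* against 22206, or 97.2%. The *Ch25h* mean was at 56.5%, and the part of macrophage RNA in it was not tested. Of 8 lymphocyte markers 6 were lower, with a summed level at 68.9% over the 10 in the table. All 8 had a mean from 10 to below 100, where 32.1% of all genes were lower and 17.2% higher. The most abundant of them, *Lck*, had nearly equal means of 55.9 and 56.2. Liver markers were the most unequal. All 5, among them *Alb* (62.1 against 781), were lower in *Abcg1 cKO*, and their summed level was 83.8 against 999, or 8.39%. *Cyp27a1*, *Cyp7b1* and *Hsd3b7*, which are abundant in liver, had means at 90.4%, 100.4% and 106.7% of the combined group. The part of liver RNA in these values was not tested.

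Of all genes with a mean of at least 10, 10.4% were higher and 12.2% lower. From a mean of 1000 these shares were 7.51% and 1.96%. Of 12 medulla markers 11 were higher and none was lower. Their summed level was 136.6% of the combined group, and *Cyp46a1*, known from neurons, was at 57.0%. Of 11 adipocyte markers 10 were higher, with a summed level of 202.7%. Adrenal cortex markers summed to 116.2%, with 7 of 10 higher and *Hsd3b1* the lowest at a log2 ratio of -0.15. Endothelial markers summed to 96.8%, with none of 12 past the fold, and capsule and fibroblast markers to 104.7%, with 1 of 8 higher and 1 lower. Of 8 immediate early genes, which respond within minutes to stimulation, 6 were higher and none lower, with a median log2 ratio of 0.64. *Fosb* was the highest of them at 2.08 and *Atf3* the lowest at -0.23. No marker in these lists was at 0. The part of these differences in the ratios of the 6 genes was not tested.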

How the data were processed

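The 12 libraries came from whole adrenals of 3 genotypes, 4 per genotype. The submitters' processing notes state that reads were trimmed with cutadapt 4.0, mapped to mm10 with STAR 2.7.10a and counted per gene with HTSeq 0.13.5. The deposited signal values are means of counts that the authors normalized with DESeq2 1.38.3, given for each group and for all libraries. The table also holds 4 columns of the authors' own comparison (fold change, its error, p-value and adjusted p-value), which were not used. Another 12 columns hold single libraries under names found in no sample label. They were left out, and the limma tests planned for labelled columns were not run.

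Log2 ratios of *Abcg1 cKO* over the combined group were taken after adding a pseudocount of 1 to each mean, in Python 3.11.15 and pandas 2.3.3. Genes past a fold of 1.2 were counted among those with a mean of at least 10. The ratio and count functions were tested on simulated data. Exon lengths and positions came from GENCODE M21, and promoters from RefSeq, both on GRCm38. The text names the 6 genes, the targeted genes and, for each pathway list, the genes with the highest and lowest ratio. Others in the lists were named after their values had been seen. The 6 genes and the lists were chosen with earlier results of these data known.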

Additional observations from a re-analysis of the deposited data

How the results depend on the processing

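No paired analysis was possible because the values of single libraries carry no replicate number that matches a label, and for the same reason no library was left out and no limma fit was made. With no spread measured, a log2 value was taken as unmoved when it shifted by under 0.1, and a share or level when it stayed within 1.5-fold. Of 111 values under an alternative, 93 were unmoved and 18 moved, and no value past the 1.2 fold changed sign. With a pseudocount of 10 the log2 ratio was -0.52 for *Ch25h* and -0.60 for *Cyp46a1*, and *Sult2b1* at -0.20 no longer passed the fold, so that 2 genes were lower. That pseudocount gave list medians of -0.43 for lymphocyte and -2.01 for liver markers, and a pseudocount of 0.1 gave -3.57 for liver. With a minimum mean of 50, the lymphocyte value of -0.0067 was that of *Lck* alone, the only marker left. The liver median of -3.73 then rested on *Alb* and *Apoa1* alone. With no minimum other than a mean above 0, the median of the oxysterol and bile acid list turned from 0.08 to -0.17, and 18.6% of genes were lower. A fold of 1.5 left 2.59% of all genes higher and 3.26% lower. By ranges of the mean, a split added after the data were seen, 17.2% were higher and 32.1% lower from 10 to below 100, and 1.96% lower from 1000. By the longest transcript, the levels per kilobase were 10.4 and 18.2 for *Cyp46a1* and 12.9 and 15.7 for *Sult2b1*, in *Abcg1 cKO* and the combined group.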
